A study of Mus musculus with 12 samples.

Results

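Skeletal muscle contractile and calcium genes were examined in inguinal white adipose tissue (WAT), the subcutaneous fat depot of the groin. The set held 42 named genes of the sarcomere, of calcium handling and of muscle energy supply, of 22180 genes that had a probe set with a single symbol. The rule used gene names and no measured value, although results of these data were known when the names were listed, and all 42 had such a probe set. By textbook fibre type, 14 were classed here as fast, 9 as slow and 19 as shared. Tropomyosins (Tpm1, Tpm2 and Tpm3) were put with the shared genes, and counts for slow genes hold for this classing. Expression was measured with 1 Affymetrix Mouse Gene 2.0 ST array for each of 12 mice, and values are RMA signals on the log2 scale, so that a difference of 1 is a change of 2-fold. The mice were males of 12 weeks. There were 6 R6/2 mice, a model of Huntington disease whose transgene holds exon 1 of human huntingtin, with its CAG repeat expanded, and 6 wild type (WT) littermates without it, all on a C57BL/6 background. R6/2 is a single transgenic line, in which the human huntingtin promoter drives the transgene and does not limit it to fat.

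Skeletal muscle fibres contract when a signal at the surface membrane opens calcium release from the sarcoplasmic reticulum, calcium binds to troponin on the thin actin filament, and myosin of the thick filament is then free to pull. Fast fibres and slow fibres build the same machine from different isoforms of myosin, troponin and calcium-store proteins. Fast IIB fibres use the myosin heavy chain Myh4, IIX fibres Myh1, IIA fibres Myh2 and slow fibres Myh7. Smooth muscle of vessel walls has a separate set of isoforms.

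The labelled tissue was borne out by adipocyte genes, with Fabp4, the fatty acid carrier of adipocytes, between 13.30 and 13.55 in R6/2 mice and between 13.29 and 13.51 in WT mice. Some arrays stood apart. The mean of 8 lymph node genes lay between 5.27 and 5.58 in WT mouse 4, R6/2 mouse 3 and R6/2 mouse 4 and between 8.50 and 10.67 in the other 9 mice. R6/2 mouse 3 was the highest of the 12 mice in 19.0% of all genes. The main genotype values are therefore also given without it. The labels name no batch, and array medians ranged from 5.75 to 5.87.

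Promoters of 4 members are printed because these genes carry the main patterns, Myh4 and Acta1 among genes that varied most between pads and Myoz2 and Mybpc1 among genes highest in R6/2 mouse 3. Each is the stretch of 250 bases before the annotated start, taken from RefSeq (GRCm38.p6), and capitals mark matches to 5 muscle or core promoter motifs. The Myh4 window is chr11:67237562-67237811 on the plus strand, and the others lie on the minus strand at chr8:123894776-123895025 for Acta1, chr3:123034988-123035237 for Myoz2 and chr10:88605153-88605402 for Mybpc1.
Myh4: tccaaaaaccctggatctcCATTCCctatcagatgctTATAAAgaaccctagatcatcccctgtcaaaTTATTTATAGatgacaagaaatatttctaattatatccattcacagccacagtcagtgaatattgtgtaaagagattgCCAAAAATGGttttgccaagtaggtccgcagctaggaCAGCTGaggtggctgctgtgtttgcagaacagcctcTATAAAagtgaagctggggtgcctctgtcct
Acta1: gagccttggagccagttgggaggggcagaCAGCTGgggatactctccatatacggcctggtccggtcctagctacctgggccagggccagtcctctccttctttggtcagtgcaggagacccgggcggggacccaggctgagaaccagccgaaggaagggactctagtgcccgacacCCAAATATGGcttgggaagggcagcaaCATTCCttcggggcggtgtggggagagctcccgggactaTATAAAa
Myoz2: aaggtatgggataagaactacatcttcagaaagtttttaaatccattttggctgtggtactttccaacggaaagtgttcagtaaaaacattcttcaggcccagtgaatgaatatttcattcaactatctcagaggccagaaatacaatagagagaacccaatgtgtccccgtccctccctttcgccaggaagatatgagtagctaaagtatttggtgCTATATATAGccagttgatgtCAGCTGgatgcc
Mybpc1: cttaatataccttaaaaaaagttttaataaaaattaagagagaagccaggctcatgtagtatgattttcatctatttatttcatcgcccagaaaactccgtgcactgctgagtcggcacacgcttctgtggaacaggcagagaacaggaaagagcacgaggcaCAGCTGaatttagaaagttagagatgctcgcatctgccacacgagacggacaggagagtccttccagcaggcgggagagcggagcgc

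Motifs searched were the E-box CAGCTG, bound by MyoD-type factors, MCAT (CATTCC), bound by TEAD factors, the CArG box of serum response factor and the MEF2 site, each on both strands, and TATAAA on the given strand only. Motifs were searched separately, so that matches could overlap. In Myh4 the E-box begins 67 bases before the start (position -67), the CArG box at -104 and the MEF2 site at -182. In Acta1 the CArG box begins at -73 and the E-box at -221, in Myoz2 the E-box begins at -12 and the MEF2 site at -33, and in Mybpc1 the only match is an E-box at -87. Of the 34 members with a RefSeq window, 15 (44.1%) held the E-box, against 12.8% of 27025 genes. MCAT was found in 11 members (32.4%) against 12.6% of genes, the MEF2 site in 7 (20.6%) against 3.01%, the CArG box in 4 (11.8%) against 1.40%, and TATAAA in 4 (11.8%) against 8.12%. The E-box was in 5 of 10 fast and 3 of 9 slow windows. A match is a run of letters and not a shown binding site.

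Muscle genes varied widely between pads of both genotypes. With all probe sets of a gene merged and no level filter, the median member spanned 3.86 log2 units over the 12 mice, against 0.71 for all genes. In that merge a span of 4 or more log2 units was found in 20 of the 42 members, 12 of them fast, 1 slow and 7 shared, and in 0.577% of all genes. In the values printed for the members, which leave out dim second probe sets of Ckm and Xirp2, the count was 22 and the median span 4.63. In a whole pad, more muscle cells and more RNA per muscle cell cannot be told apart.

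**Figure D1:**
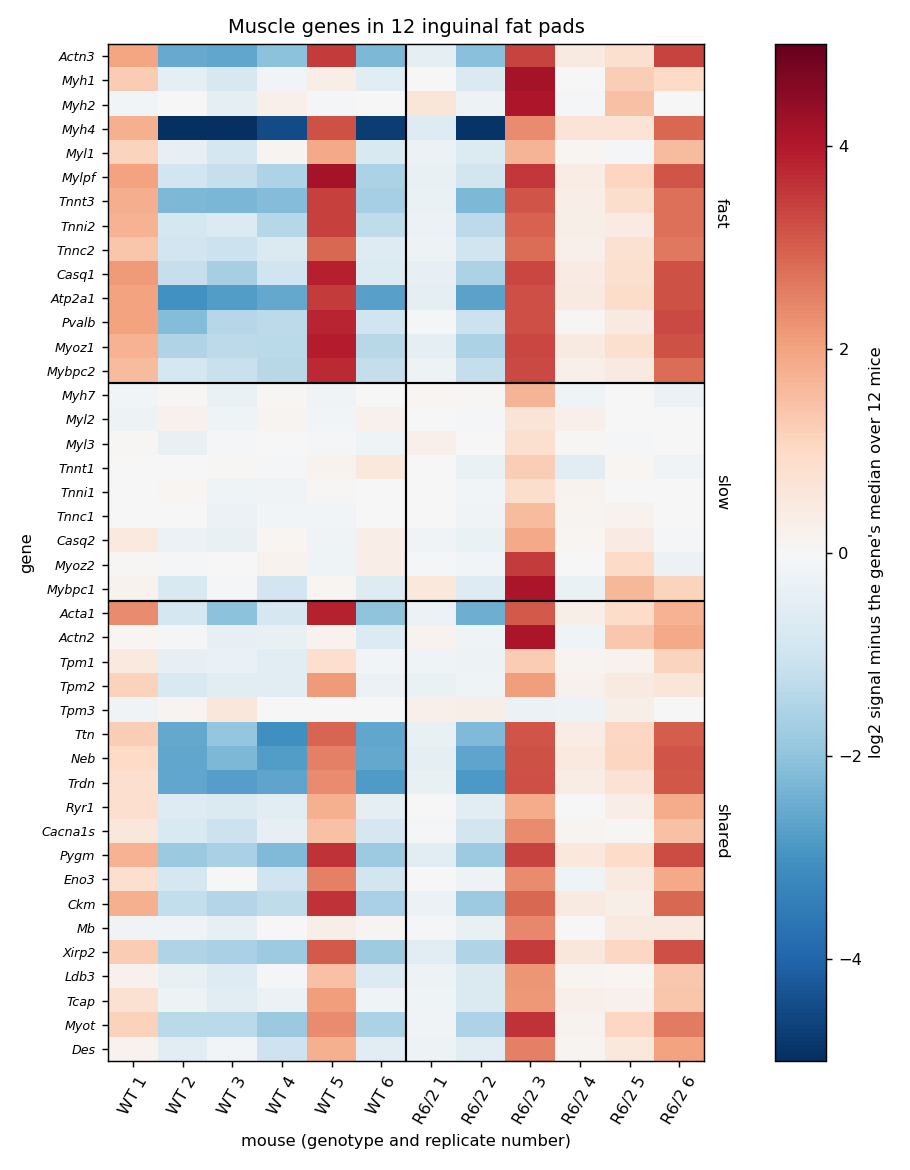
Log2 signal of each muscle gene minus the median of that gene over the 12 mice, with genes as lines grouped by fibre type and mice as columns (the colour scale ends at 5 in both directions, and Myh4 in WT mouse 2 lies beyond it). Most fast and shared genes are high in WT mice 1 and 5 and R6/2 mice 3 and 6, with Myh1 and Myh2 among the exceptions. Slow genes are highest in R6/2 mouse 3, with Mybpc1 also raised above its median in R6/2 mice 5 and 6.

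Fast myosin of type IIB is given first. Myh4 signals in WT mice had a lowest value of 3.99, a median of 5.13 and a highest of 12.91, and in R6/2 mice a lowest of 4.81, a median of 10.40 and a highest of 12.60. Values under the level limit (the median of probe sets without a gene symbol, 5.45 in WT and 5.44 in R6/2 mice) are treated as near background, so that a span from such a value is a lower bound measured from 5.45. The Myh4 span was at least 176-fold. WT mice 2, 3, 4 and 6 lay between 3.99 and 5.26 together with R6/2 mouse 2 at 4.81, WT mice 1 and 5 were at 11.51 and 12.91, and the other 5 R6/2 mice lay between 9.07 and 12.60. Genotypes therefore overlapped over nearly the whole span. The difference between means was 2.66 (SE 1.76) on the log2 scale and did not pass limma's test (adjusted p = 0.882).

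Other thick-filament genes of fast fibres were high in the same 4 mice. Mylpf, the regulatory light chain of fast myosin, ran from 4.09 through a median of 4.62 to 9.85 in WT mice and from 4.75 through 6.40 to 9.21 in R6/2 mice. Mybpc2, fast myosin binding protein C, ran from 4.82 through 5.18 to 9.94 in WT and from 5.00 through 6.52 to 9.50 in R6/2 mice. Both had WT mouse 5 highest and R6/2 mouse 3 next, where Myh4 had R6/2 mouse 6 next, with WT mice 2, 3, 4 and 6 and R6/2 mouse 2 lowest. Myl1, the essential light chain, had the narrowest span of the fast genes, from 7.54 through 8.29 to 10.33 in WT mice and from 7.76 through 8.42 to 10.11 in R6/2 mice, and there WT mouse 4 at 8.56 was not among the low mice.

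Thin-filament regulators of fast fibres did likewise. Tnnt3, which anchors the troponin complex to tropomyosin, ran from 6.01 through 6.39 to 11.72 in WT mice and from 6.05 through 8.90 to 11.47 in R6/2 mice. Tnni2, the inhibitory subunit, spanned 28.5-fold and Tnnc2, the calcium-binding subunit, 15.3-fold over the 12 mice. Actn3, the alpha-actinin that crosslinks actin at the Z disc of fast fibres, ran from 5.28 through 5.72 to 11.35 in WT and from 5.76 through 8.49 to 11.26 in R6/2 mice. Myoz1, a Z disc protein that binds calcineurin, spanned at least 24.2-fold. All 5 genes were highest in WT mouse 5.

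Calcium handling genes of fast fibres were high in the same mice. Atp2a1, the fast calcium pump of the sarcoplasmic reticulum, ran from 5.25 through 5.66 to 11.78 in WT mice and from 5.59 through 8.96 to 11.53 in R6/2 mice, a span of at least 80.3-fold. Pvalb, the cytosolic calcium buffer of fast fibres, ran from 5.33 through 6.32 to 11.31 in WT and from 6.42 through 7.75 to 10.78 in R6/2 mice. Casq1, which stores calcium in the sarcoplasmic reticulum of fast fibres, ran from 5.62 through 6.45 to 11.17 in WT and from 5.70 through 7.88 to 10.61 in R6/2 mice. Pumping, buffering and storage genes thus held the same mice at the top and at the bottom.

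WT mice 1 and 5 and R6/2 mice 3 and 6 were the 4 highest in 12 of the 14 fast genes, the exceptions being Myh1 and Myh2. WT mice 2, 3, 4 and 6 and R6/2 mouse 2 were the 5 lowest in 12 of 14, the exceptions being Myh2 and Myl1. Averaged over the fast genes, the deviation from the 12-mouse median was 3.18 in R6/2 mouse 3, 2.97 in WT mouse 5, 2.56 in R6/2 mouse 6 and 1.60 in WT mouse 1. WT mouse 5 was nonetheless above R6/2 mouse 3 in 12 of the 14 fast genes, all but Myh1 and Myh2. The mean deviation was 0.76, 0.28 and -0.26 in R6/2 mice 5, 4 and 1, and lay between -1.66 and -1.41 in the remaining 5 mice. Each genotype thus held pads high and pads low in fast fibre genes, with 4 of 6 WT mice and 1 of 6 R6/2 mice in the low group.

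Myh1 and Myh2, the heavy chains of IIX and IIA fibres, departed from this order. Myh2 lay between 4.99 and 5.69 in WT mice, with a median of 5.39, and between 5.15 and 9.47 in R6/2 mice, with a median of 5.76. R6/2 mouse 3 was at 9.47 and R6/2 mouse 5 at 6.89, while WT mouse 5, the highest in Myh4, was at 5.37. Myh1 ran from 4.29 through 4.79 to 6.38 in WT mice and from 4.38 through 5.62 to 9.28 in R6/2 mice, where R6/2 mouse 3 exceeded the next mouse 7.49-fold. Heavy chain genes are close paralogues, and whether probes of 1 gene also take up RNA of another was not examined.

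**Figure D2:**
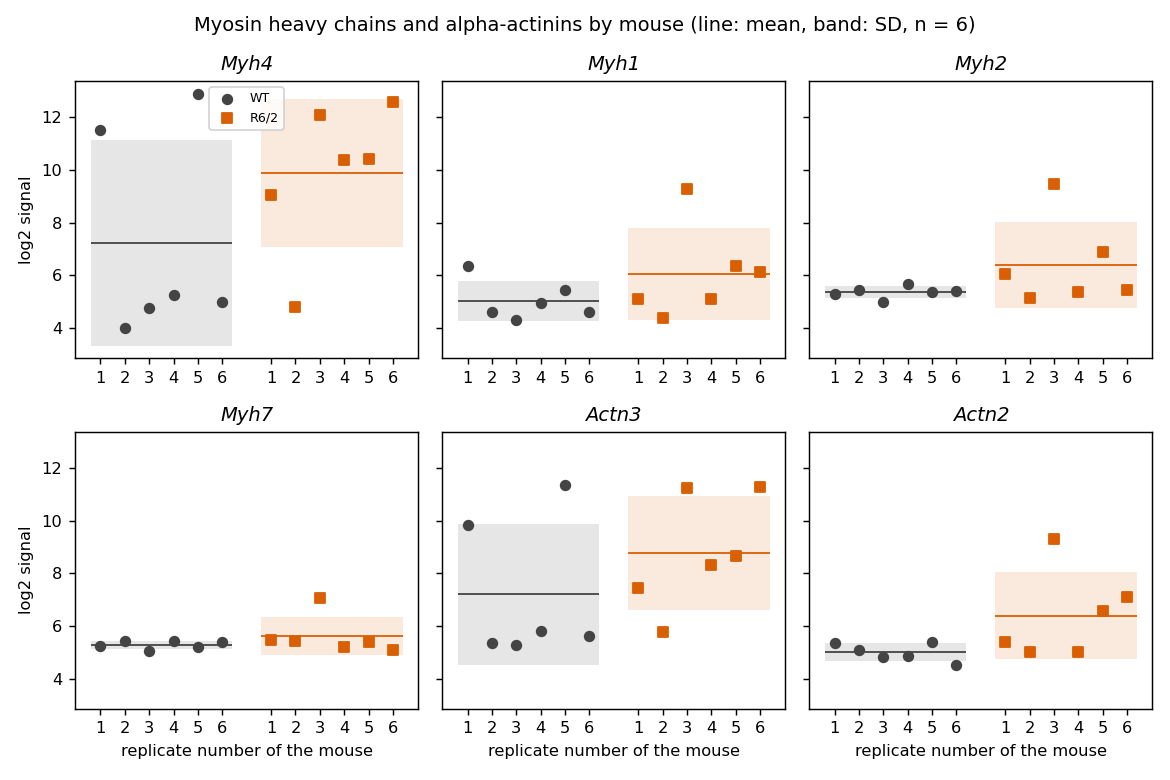
Log2 signal of 4 myosin heavy chains and 2 alpha-actinins in each mouse (circles WT, squares R6/2, line the mean and band the SD of 6 mice). Myh4 and Actn3 are high in several pads of both genotypes, whereas Myh1, Myh2, Myh7 and Actn2 have their highest value in R6/2 mouse 3.

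Outside R6/2 mouse 3, slow fibre genes other than Mybpc1 spanned 0.37 to 1.25 log2 units, and Mybpc1 spanned 2.62. Myh7, the slow heavy chain, lay between 5.06 and 5.44 in WT mice (median 5.32) and between 5.10 and 7.08 in R6/2 mice (median 5.42). R6/2 mouse 3 was at 7.08 and the next mouse at 5.48. All 9 slow genes were highest in R6/2 mouse 3 and none in WT mouse 5, whereas WT mouse 5 was highest in 12 of the 14 fast genes. R6/2 mouse 3 was the highest mouse in 23 of the 42 members against 19.0% of all genes, and WT mouse 5 in 17 of 42 against 2.62%.

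Light chains and troponins of slow fibres kept to this pattern with smaller steps. Myl2, the regulatory light chain of slow fibres and heart ventricle, ran from 5.10 through 5.37 to 5.59 in WT mice and from 5.29 through 5.36 to 6.02 in R6/2 mice. Myl3, the essential light chain, ran from 5.43 through 5.73 to 5.86 in WT and from 5.70 through 5.86 to 6.60 in R6/2 mice. Tnnc1, the calcium-binding troponin of slow fibres and heart, lay between 6.41 and 6.74 in WT mice (median 6.66) and reached 8.29 in R6/2 mouse 3, with the other R6/2 mice at or under 6.90. Tnni1 and Tnnt1, the inhibitory and the tropomyosin-binding subunits, reached 6.58 and 6.94 in R6/2 mouse 3, with WT mice at or under 5.82 and 6.24.

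The largest steps among slow genes were those of Mybpc1 and Myoz2. Mybpc1, the slow form of myosin binding protein C, which some fast fibres also make, ran from 4.96 through 5.56 to 6.11 in WT mice and from 5.30 through 6.77 to 10.01 in R6/2 mice. R6/2 mice 3, 5, 6 and 1, at 10.01, 7.58, 7.06 and 6.48, lay above every WT mouse, and R6/2 mice 2 and 4 lay within the WT range. Myoz2, a Z disc protein of slow fibres and heart, lay between 3.85 and 4.40 in WT mice (median 4.07) and between 3.75 and 7.55 in R6/2 mice (median 4.04). R6/2 mouse 3 was at 7.55 and R6/2 mouse 5 at 5.00. Its mean fell under the level limit in both genotypes, so Myoz2 was described and not tested, unlike the other 41 members. Casq2, the calsequestrin of slow fibres and heart, reached 7.44 in R6/2 mouse 3, against 5.17 to 6.03 in WT mice. Averaged over the slow genes, the deviation from the 12-mouse median was 1.81 in R6/2 mouse 3, 0.35 in R6/2 mouse 5 and between -0.19 and 0.07 in the other 10 mice.

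Genes that all fibres share were mostly high in the same 4 pads as the fast genes. Acta1, the actin of the skeletal thin filament, ran from 6.67 through 7.88 to 12.60 in WT mice and from 6.31 through 9.34 to 11.82 in R6/2 mice. Ttn, the elastic protein that links Z disc and M line, ran from 5.38 through 6.20 to 11.35 in WT and from 6.23 through 9.14 to 11.59 in R6/2 mice. Neb, the ruler of the thin filament, ran from 5.62 through 5.99 to 10.92 in WT and from 5.77 through 9.19 to 11.58 in R6/2 mice. WT mice 1 and 5 and R6/2 mice 3 and 6 were the 4 highest in 14 of the 19 shared genes, the exceptions being Actn2, Tpm3, Neb, Mb and Des.

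Excitation and calcium release genes belonged to that majority. Trdn, which ties calsequestrin to the release channel, ran from 4.76 through 4.96 to 9.94 in WT mice and from 4.69 through 8.14 to 10.80 in R6/2 mice. Cacna1s, the voltage sensor, ran from 5.20 through 5.71 to 7.75 in WT and from 5.37 through 6.38 to 8.63 in R6/2 mice. Ryr1, the release channel itself, had 2 probe sets that disagreed, 1 between 5.75 and 6.47 and the other between 5.07 and 9.73, so that the merged span of 6.03-fold is smaller than that of the second. In that second probe set R6/2 mice 3 and 6 and WT mouse 5 were at 9.73, 9.70 and 9.62.

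Energy genes of muscle had the same mice at the top. Ckm, the muscle creatine kinase, ran from 6.13 through 6.50 to 11.34 in WT mice and from 5.92 through 8.12 to 10.64 in R6/2 mice. Pygm, muscle glycogen phosphorylase, ran from 5.72 through 6.21 to 11.54 in WT and from 6.11 through 8.65 to 11.28 in R6/2 mice. Eno3, the muscle enolase, spanned 11.4-fold. Mb, the oxygen-binding myoglobin of oxidative fibres, was different, with WT mice between 5.98 and 6.67 (median 6.32), R6/2 mouse 3 at 8.78 and the other R6/2 mice at or under 6.86.

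Among Z disc and cytoskeletal genes, Actn2 was highest in R6/2 mouse 3, as the slow genes were. It was also raised in R6/2 mice 5 and 6, as was Mybpc1 of the slow genes. Actn2, the alpha-actinin found across fibre types, ran from 4.53 through 4.99 to 5.41 in WT mice and from 5.00 through 5.99 to 9.30 in R6/2 mice. R6/2 mice 3, 6 and 5 lay above every WT mouse at 9.30, 7.10 and 6.58. Xirp2, which binds actin, spanned at least 14.4-fold, Myot at least 23.0-fold, Ldb3 7.66-fold and Tcap, the titin cap, 7.42-fold, and R6/2 mouse 3 was the highest in all 4. Des, the intermediate filament of muscle that smooth muscle also makes, ran from 6.98 through 7.68 to 9.80 in WT and from 7.50 through 8.36 to 10.56 in R6/2 mice. Tropomyosins, which many cells besides muscle make in other isoforms, spanned 3.50-fold for Tpm1, 7.47-fold for Tpm2 and 1.78-fold for Tpm3. Tpm3 was the only member in which neither R6/2 mouse 3, WT mouse 5 nor R6/2 mouse 6 was the highest. Classed as shared, Tpm3 does not enter the counts of slow genes.

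R6/2 mouse 3 and WT mouse 5, the 2 pads with the highest mean deviation over the fast genes, are set side by side. In fast genes, R6/2 mouse 3 was lower than WT mouse 5 in 12 of 14, with a median difference of -0.35, but higher in Myh2 (9.47 and 5.37) and Myh1 (9.28 and 5.44), where WT mouse 5 lay under the level limit and the differences are at least 4.02 and 3.83. In slow genes it was higher in all 9, by 0.78 to 3.96 in measured signal with a median of 1.69, and WT mouse 5 lay under the limit in Myh7, Myl2, Casq2 and Myoz2. In shared genes it was higher in 13 of 19, by at least 3.85 in Actn2 and by 2.11 in Mb, and lower by 0.78 in Acta1. This is a description of 2 pads, with no test.

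**Figure D3:**
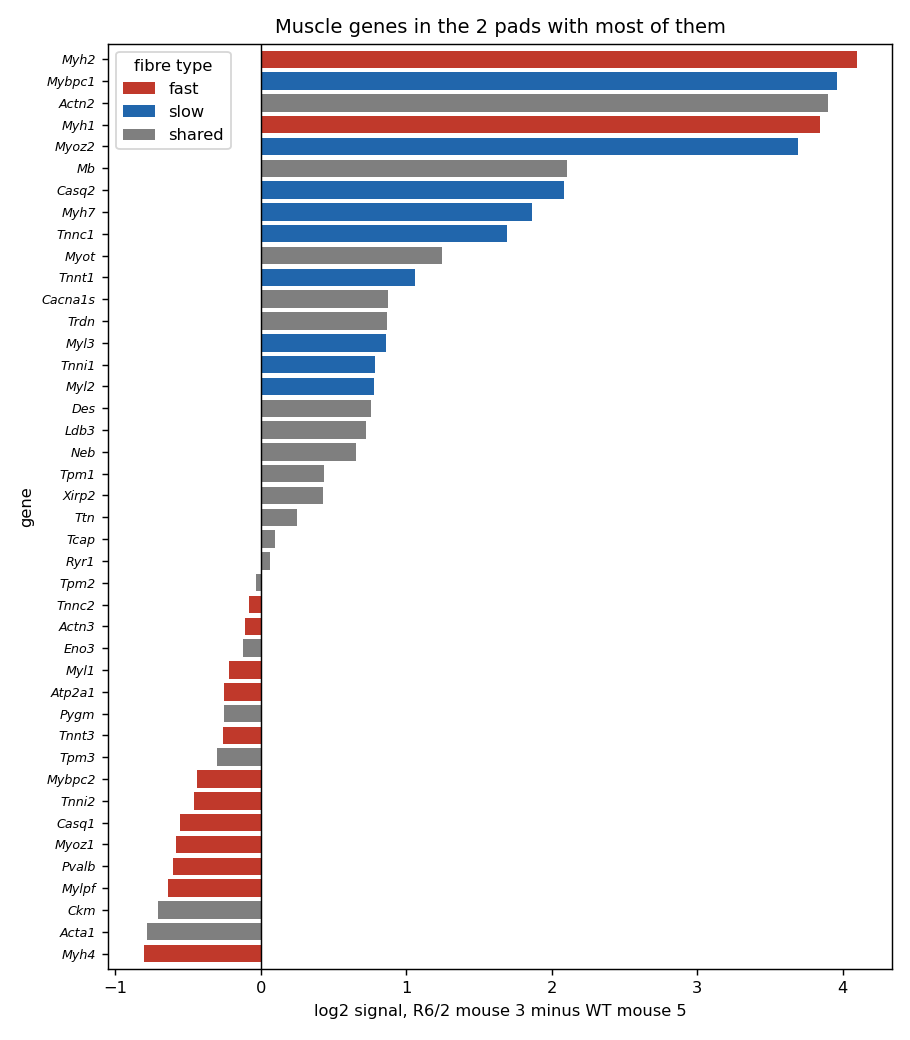
Difference in log2 signal between R6/2 mouse 3 and WT mouse 5 for each of the 42 muscle genes, coloured by fibre type (1 array each, no error, and bars use the measured signal also where WT mouse 5 lay under the level limit). Every slow gene is higher in R6/2 mouse 3, while 12 of 14 fast genes are slightly higher in WT mouse 5.

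The study's own comparison was that of genotypes. No member passed limma's test across all genes with Benjamini-Hochberg adjustment (0 of 41 tested, against 0% of 14550 genes). At an unadjusted p under 0.05, 2 of the 41 members were higher in R6/2 mice, against 2.53% of all genes, and 0 were lower, against 3.31%. SAM, the study's test, called 0 members at a q of 5%, against 0.509% of genes. In 0 of the 42 members did all R6/2 mice lie above all WT mice, which occurred in 0.149% of all genes.

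Means were mostly higher in R6/2 mice. The sign of the difference turned in 34 of the 41 members tested with the macrophage gene mean as a covariate. It turned in 15 with array weights, which count arrays that depart from the fit for less. Both counts include Tpm3, which was lower in R6/2 mice and turned to 0.12 and 0.13. With neither covariate nor weights, the mean was higher in R6/2 mice in 40 of the 42 members, against 50.4% of all genes. These were 14 of 14 fast, 8 of 9 slow and 18 of 19 shared. The members move together between pads, so they are not 42 separate observations. The exceptions were Tnnt1, with a difference of -0.06 (SE 0.25), and Tpm3, with -0.04 (SE 0.14). Tpm3 was merged from 2 probe sets that disagreed in direction. The mean was lower in R6/2 mice in the brighter (7.75 to 8.79 over the 12 mice) and higher in the dimmer (6.37 to 7.33). With all probe sets merged, a mean at least 1.5 times higher in R6/2 mice was found in 25 of 42 members, 13 fast, 2 slow and 10 shared, against 0.609% of all genes, and the median log2 difference was 0.69 over the members and 0.00 over all genes. In the values printed for the members, the count was 26 and the median 0.71. Without R6/2 mouse 3, that count was 12, the median was 0.31 and the mean was higher in R6/2 mice in 36 of the 42. Leaving out other mice could also enlarge a difference. Over each mouse left out in turn, it ran from 2.01 to 3.80 for Myh4, from 1.21 to 2.59 for Atp2a1 and from 1.37 to 2.61 for Ttn. The upper end was without WT mouse 5 in these genes, against 2.66, 1.71 and 1.83 with all 12 mice.

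Actn2 and Mybpc1 were the 2 members under an unadjusted p of 0.05. The Actn2 difference was 1.39 (SE 0.62) and that of Mybpc1 was 1.44 (SE 0.65), each with a limma adjusted p = 0.842. Without R6/2 mouse 3 the differences were 0.81 for Actn2 and 0.84 for Mybpc1. Large differences in fast genes had wide intervals. The 95% interval ran from -1.16 to 6.48 for Myh4, from -1.22 to 4.63 for Atp2a1 and from -1.17 to 4.30 for Actn3. The interval was narrow where the mice differed little, as in Tnni1 (-0.14 to 0.51) and Myl2 (-0.16 to 0.44). Without that mouse no member passed either, and the differences of Myl1, Casq2, Acta1, Tpm2 and Tcap fell to between -0.07 and -0.02.

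**Figure D4:**
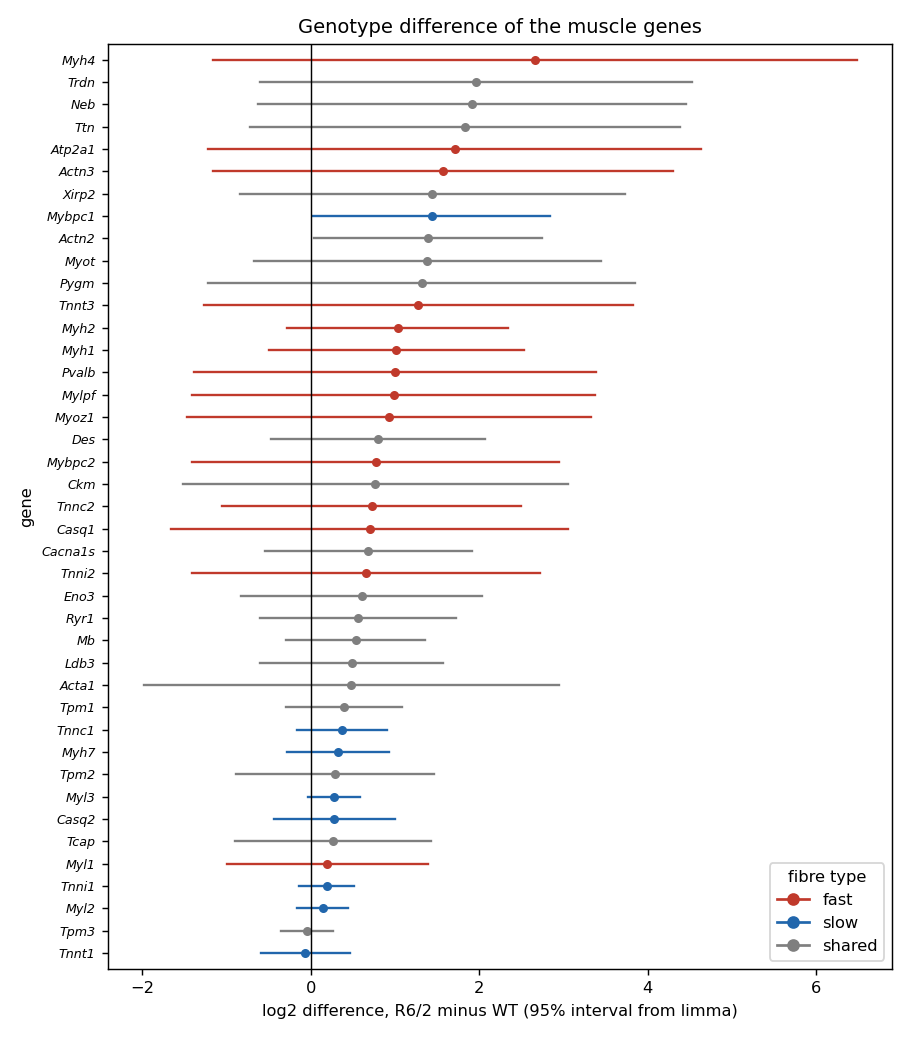
Log2 difference in mean signal between R6/2 and WT mice for the 41 muscle genes tested, with 95% intervals from limma and colours by fibre type (6 mice per genotype). Most points lie to the right of 0, and every interval includes 0 except those of Actn2 and Mybpc1.

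Fast minus slow isoform differences were formed within each array. Slow isoforms other than Mybpc1 varied little outside R6/2 mouse 3, so there the differences largely followed the fast isoform. The SD in WT mice was 3.96 for Myh4 minus Myh7 and 3.90 for Myh4 itself. Mybpc1 had an SD of 1.70 in R6/2 mice, against 1.78 for Mybpc2, so that pair did not follow its fast isoform alone. The set held 9 pairs, and 8 had both genes past the level limit and were tested with an exact two-sided permutation test over mice. The Myh4 minus Myh7 difference was 2.34 higher in R6/2 mice (exact p = 0.251, adjusted p = 0.792), that of Tnnt3 minus Tnnt1 was 1.34 higher (exact p = 0.307, adjusted p = 0.792), and that of Mybpc2 minus Mybpc1 was 0.67 lower, at -0.67 (exact p = 0.472, adjusted p = 0.792). Leaving out each mouse in turn moved the last from -1.04 to -0.037, the latter without WT mouse 5. The remaining pairs differed by -0.08 to 0.84. None of the 8 passed, with exact p between 0.251 and 0.861, where the smallest p the design allows is 0.00216. For calsequestrins, the Casq1 minus Casq2 difference stood 3.62 above its 12-mouse mean in WT mouse 5 and 0.98 above it in R6/2 mouse 3, although both pads were high in Casq1.

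Further muscle genes that are not members were read from lists for the sarcomere, for calcium and excitation, and for energy supply. Of 25 further sarcomere genes tested, 0 passed limma's adjusted threshold and 2 had an unadjusted p under 0.05, both higher in R6/2 mice, as in 2.53% of all genes. These were Lmod2, which regulates thin filament length (difference 1.13, SE 0.50, adjusted p = 0.839, and 0.60 without R6/2 mouse 3), and Ankrd2, a stretch-responsive Z disc protein of slow fibres (0.51, SE 0.23, adjusted p = 0.839, and 0.29 without that mouse). Of 13 further calcium and excitation genes tested, 0 passed and 0 had an unadjusted p under 0.05. Of 10 energy genes, 0 passed and 1 had an unadjusted p under 0.05, Fbp2, the muscle fructose bisphosphatase, which was higher in R6/2 mice (0.82, SE 0.28, adjusted p = 0.720). The list means over all mice ran from 5.49 to 8.05 for sarcomere genes, from 5.39 to 7.02 for calcium and excitation genes and from 5.89 to 8.76 for energy genes, each highest in R6/2 mouse 3. The median span of these genes was 2.60, 2.11 and 3.04 log2 units.

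The listed cardiac, developmental and smooth muscle genes did not vary in this way. Actc1, the cardiac actin, was counted with the further sarcomere genes and was highest in the pads high in fast genes. It was at 6.59 and 6.57 in R6/2 mice 6 and 3 and at 6.20 and 6.12 in WT mice 5 and 1. Cardiac genes (5 of 5 listed) had a mean between 5.41 and 5.72 over all mice, and the heart heavy chain Myh6 lay between 5.10 and 5.57, near the level limits. Developmental muscle genes (5 of 5) had a mean between 4.96 and 5.32, with the embryonic heavy chain Myh3 between 3.69 and 4.18. Smooth muscle genes (10 of 10) had a mean of 7.34 ± 0.13 (SD, n = 6) in WT and 7.18 ± 0.33 in R6/2 mice, with 7.19 in R6/2 mouse 3 and 7.20 in WT mouse 5. Over all mice that mean ran from 6.85 in R6/2 mouse 6 to 7.79 in R6/2 mouse 4. The 6 myogenic regulators measured had a median span of 0.72 log2 units, against 0.71 for all genes, and Myf6 had the widest. Myf6, which mature fibres keep expressing, ran from 4.95 to 7.17 in WT and from 4.99 to 7.77 in R6/2 mice. Pax7, the marker of satellite cells, lay between 5.74 and 6.47 in all mice.

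Markers of other cells that moved beside the muscle genes are given as values. The mean of 8 brown adipocyte genes was 8.27 ± 0.72 (SD, n = 6) in WT and 9.08 ± 0.69 in R6/2 mice. It was highest in R6/2 mouse 3, at 9.997. Muscle also makes some of these genes, Cox7a1 and Ppargc1a among them. Ucp1, the uncoupling protein of brown and beige adipocytes, was at 12.55 and 12.61 in R6/2 mice 3 and 6 and at 11.62 and 10.88 in WT mice 1 and 5. Ucp1 was also at 12.35 and 11.41 in R6/2 mice 1 and 2, whose fast genes lay on average below the median. In WT mice 2, 3, 4 and 6, likewise low in fast genes, Ucp1 lay between 8.70 and 10.06. In R6/2 mice 4 and 5 it was at 8.44 and 11.47. The mean of 6 macrophage genes was 8.98 ± 0.44 in WT and 8.31 ± 0.46 in R6/2 mice and was lowest in R6/2 mouse 3, at 7.60. With the macrophage mean as a covariate, the sign of the genotype difference turned in 34 of the 41 members (Myh4 to -1.40), and 0 members passed. The lymph node mean was 5.37 in R6/2 mouse 3, where muscle genes were high, and at 5.27 in WT mouse 4, where fast genes were low. The part of any of these in the muscle values was not tested.

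**Figure D5:**
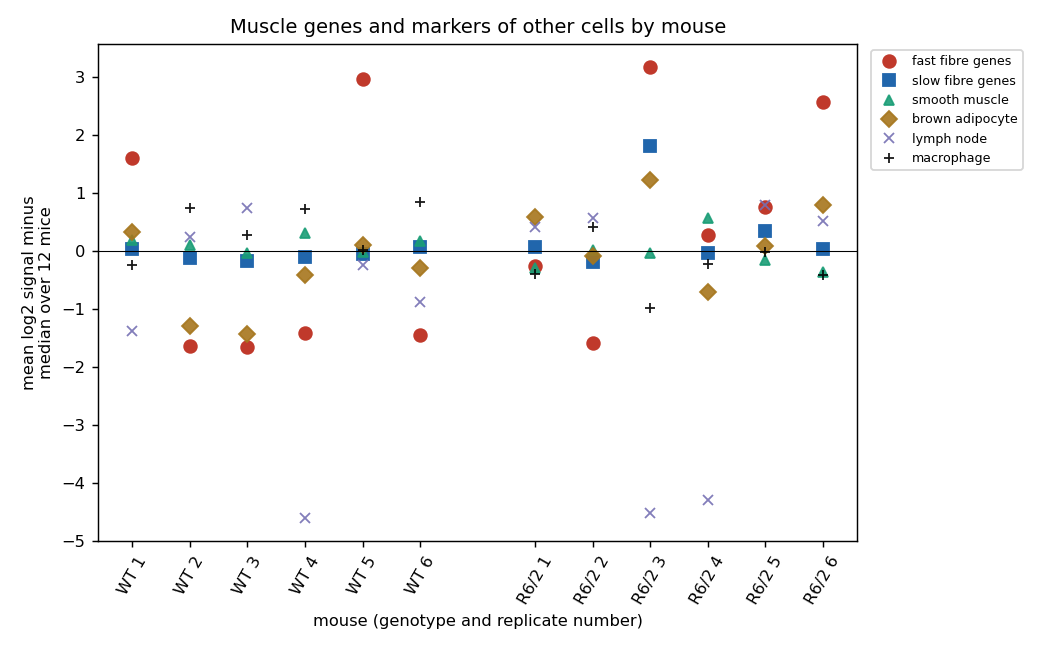
Mean deviation of the fast and slow muscle genes, and the mean of 4 lists of other cells minus its median, in log2 units for each mouse. Fast genes range from -1.66 to 3.18, slow genes stand out in R6/2 mouse 3 at 1.81, smooth muscle genes span 0.93, and lymph node genes are low in 3 mice.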

How the data were processed

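Total RNA of inguinal WAT from 12 mice was hybridised by the authors to Affymetrix Mouse Gene 2.0 ST arrays, 1 array per mouse, after a check of RNA integrity. Affymetrix Expression Console 1.1.2 served the authors for RMA over the 12 arrays, and 1 unfiltered log2 value per probe set was deposited. RMA equalises the distribution of signals between arrays, so a value is relative to the rest of its array. Arrays give no read depth, and the number of mice limits the precision. The genome build was not given in the sources used here. Per the labels, samples were grouped by genotype.

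Of 41345 probe sets, 23521 carried 1 gene symbol in the platform annotation, 1820 several and 16004 none, and only the first kind was used. The filter on level required a mean above the median of probe sets without a symbol, 5.45 in WT or 5.44 in R6/2 mice, in at least 1 genotype. The study's filter used negative controls, which the table does not mark, so this limit differs from it. The 15328 probe sets past it were merged by the median to 14550 genes. For Ckm and Xirp2 a second probe set fell under the limit and was left out of the values printed. Myoz2 is given as deposited. Counts named as without a level filter used all probe sets of a gene. Genotypes were compared with limma 3.58.1 (R 4.3.3) with Benjamini-Hochberg adjustment over all genes at 0.05, and SAM, the study's test, was an alternative with 100 regroupings. Isoform pairs were compared by exact permutation with adjustment over pairs. Scripts were tested on simulated data. All 42 members were named, with up to 4 genes of smallest p from each further list and genes that define a cell type. Members and lists were chosen with earlier results of these data known, and the earlier session's processing was followed. Each mouse is a separate animal.

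Alternatives were no filter, a stricter filter, the highest probe set of a gene, quantile normalisation, median centring, a trended robust fit, array weights, SAM, lymph node or macrophage means as covariates, the replicate number as a block, and leaving out each mouse. Leaving out R6/2 mouse 3 with WT mouse 5 was added after seeing the data.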

Additional observations from a re-analysis of the deposited data

Results flagged for a closer look

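In 126 groups of 6 mice (members, isoform pairs and lists, by genotype), 8 held a mouse whose gap to the nearest other was a large part of the whole range (Dixon's criterion), where chance alone flags about 1 in 20 groups, or 6.3 here. In 7 of them the mouse was R6/2 mouse 3, as the highest R6/2 mouse. Its log2 signal was 7.08 in Myh7 against 5.48 in the next mouse, 6.94 in Tnnt1 against 5.83, 6.58 in Tnni1 against 5.88, and 8.29 in Tnnc1 against 6.90. It was 7.44 in Casq2 against 5.93, 7.55 in Myoz2 against 5.00 and 8.78 in Mb against 6.86. The first 6 are slow fibre genes and Mb is the myoglobin of oxidative fibres. The remaining group was the mean of 7 mature adipocyte genes, which was lowest among WT mice in WT mouse 3, at 10.98 against 11.40.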

How the results depend on the processing

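No member was called under any of the alternatives. No isoform pair passed under the 17 alternatives in which pairs were tested. Over all genes, where 0 were called, 46 were called with array weights, 74 by SAM, 21 with the lymph node mean as a covariate and 2 with the replicate number as a block, and leaving out each mouse in turn gave 0 to 23 genes, with 1 without WT mouse 1 or WT mouse 3 and 23 without R6/2 mouse 4. Mice of the same replicate number did not consistently deviate together over all genes (correlations between -0.78 and 0.78). Only WT mice 2 and 4 were closest to their own number, with correlations of 0.63 and 0.78. Lymph node and muscle genes also differed widely between pads, so these correlations cannot decide whether the numbers pair the mice. The block called 0 members. The cause of each change below was not tested.

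The genotype difference (log2, R6/2 minus WT) changed sign, without being called, as follows. With the macrophage mean as a covariate it was Actn3 -1.30, Myh1 -0.47, Myh4 -1.40, Myl1 -0.98, Mylpf -1.46, Tnnt3 -1.42, Tnni2 -1.57, Tnnc2 -1.06, Casq1 -1.66, Atp2a1 -1.43, Pvalb -1.45, Myoz1 -1.55, Mybpc2 -1.50, Tnni1 -0.053, Tnnc1 -0.0053, Casq2 -0.23, Acta1 -2.12, Tpm1 -0.30, Tpm2 -0.89, Tpm3 0.12, Ttn -0.95, Neb -0.83, Trdn -0.83, Ryr1 -0.60, Cacna1s -0.62, Pygm -1.35, Eno3 -0.87, Ckm -1.66, Mb -0.073, Xirp2 -0.92, Ldb3 -0.58, Tcap -0.92, Myot -0.88 and Des -0.44. With array weights it was Myl1 -0.35, Mylpf -0.18, Tnni2 -0.30, Tnnc2 -0.15, Casq1 -0.51, Pvalb -0.036, Myoz1 -0.26, Mybpc2 -0.32, Casq2 -0.036, Acta1 -0.77, Tpm2 -0.41, Tpm3 0.13, Ckm -0.33, Ldb3 -0.081 and Tcap -0.41. Leaving out each mouse in turn gave -0.064 to 0.54 for Myl1, -0.30 to 0.056 for Tnnt1, -0.042 to 0.40 for Casq2, -0.023 to 1.24 for Acta1, -0.038 to 0.67 for Tpm2, -0.093 to 0.051 for Tpm3 and -0.069 to 0.63 for Tcap. The difference between genotypes in fast minus slow isoform then ran from -0.36 to 0.25 for Myl1 minus Myl3, from -0.055 to 0.91 for Tnnc2 minus Tnnc1 and from -0.10 to 1.19 for Casq1 minus Casq2. With R6/2 mouse 3 and WT mouse 5 both left out, chosen after seeing the data, values were -0.082 for Casq2, 0.0086 for Tpm3, 0.12 for Myl1 minus Myl3 and 0.078 for Mybpc2 minus Mybpc1.

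Signals near the level limit, as in most slow genes, leave little room to show a decrease, and arrays of whole pads do not separate cell types. With 6 mice per genotype, differences smaller than the intervals given are not resolved.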
